A study of Sus scrofa with 8 samples.

Results

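MYC, MYCN and MYCL are the 3 members of the MYC family of transcription factors, and their messenger RNA was followed through the differentiation of pig (Sus scrofa) pluripotent cells towards the lung. They were taken by gene name from a deposited table of 25578 genes. MYC and MYCN were found by their symbols, and MYCL, whose row carries no symbol, through its written description. RNA sequencing covered 4 stages with 2 libraries each, described in the labels as porcine pluripotent stem cells (PSC), definitive endoderm (DE, the germ layer that forms the lining of the gut), anterior foregut endoderm (AFE, the forward section of the early gut, which gives rise to lung and thyroid) and lung progenitor organoids (LPO). The table's own headers call PSC "EPSC" and LPO "Organoid". No treatment dose, culture time, cell line, sex or donor animal is stated in the labels, and they leave unstated whether replicate libraries are separate cultures, so each p-value below measures a spread between libraries that may be technical.

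MYC proteins bind DNA as a pair with the partner MAX, at a short motif called the E-box, and raise transcription of genes for ribosome assembly, translation, nucleotide synthesis and the cell cycle. Members of the MXD group, together with MNT and MGA, compete for MAX and act in the opposite direction on many of the same genes. In mammals MYC and MYCN serve early embryonic and stem cells, MYCN has been studied in the growing distal epithelium of the mouse lung bud, and MYCL is known as the paralog first found amplified in small cell lung cancer. The family is turned over rapidly as RNA and as protein, so RNA levels describe only a part of MYC activity.

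Coordinates and annotation come from the deposited table. Its genome build was not given in the sources used here. MYC (ENSSSCG00000005965) lies on chromosome 4 from 12455122 to 12458471 on the minus strand. MYCN (ENSSSCG00000008618) lies on chromosome 3 from 121543109 to 121549046, also on the minus strand. MYCL (ENSSSCG00000039761) lies on chromosome 6 from 95701460 to 95702530, on the minus strand. None of the 3 overlaps another gene of the table. The MYCL entry spans only 1071 bases, and the length implied by its counts and FPKM is 750 bases, against 2725 for MYCN and 3396 for MYC. For MYC the implied length is slightly above its whole span of 3350 bases, so the implied lengths are approximate. Since levels of different genes are set side by side only per length, in FPKM (read pairs relative to library size and to the length of the transcript), these lengths enter each comparison between paralogs.

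Total counts per library were 36004372 to 67566269. Low values gathered at multiples of 4, which held 46.4% to 50.7% of the values from 1 to 12 in each library. This was read as about 4 counts per read pair, though the other low values lay off these steps. On that reading the depth was roughly 9001093 to 16891567 read pairs, and numbers of read pairs below are estimates. Changes between stages were tested on counts, scaled to counts per 1e6 counts (CPM) with TMM factors of 0.901 to 0.954 in PSC, DE and AFE and of 1.27 and 1.26 in LPO. FPKM carries no such factor and summed to 345600 and 347800 in LPO against 439100 to 467000 in the other libraries, so a gene stands relatively higher in LPO on the FPKM scale than on the CPM scale. Marker sums followed the labels for PSC (7471 to 8234 CPM in PSC libraries) and DE (1254 to 1268 CPM in DE libraries). POU5F1 (mean 4805 CPM) and DNMT3B (mean 2927 CPM) made up most of the PSC sum. Of the PSC markers, SOX2 averaged 30.5 CPM in LPO against 5.26 CPM in PSC. LIN28A averaged 35.4 CPM in DE against 4.60 CPM in PSC. Of the DE markers, CXCR4 averaged 34.8 CPM in AFE against 26.5 CPM in DE. The other markers of both lists were highest in the stage they mark. The AFE markers summed highest in DE (317.7 to 319.3 CPM), against 163.1 to 177.7 CPM in AFE. Most of that DE sum was FOXA2, also a DE marker, with means of 294.2 CPM in DE and 91.9 CPM in AFE. FOXA1 averaged 56.7 CPM in AFE against 17.5 CPM in DE, and SOX2 5.98 against 0.096 CPM. TBX1 (11.2 against 3.33 CPM) and PAX9 (1.86 against 0.148 CPM) also averaged higher in AFE, and ISL1 lower (2.74 against 3.20 CPM). NKX2-1, the defining factor of lung progenitors, averaged 0 CPM in PSC and DE, 19.8 CPM in AFE and 34.0 CPM in LPO. The summed LPO markers, which include general epithelial genes, hardly differed between stages. SOX9 (159.1 against 16.35 CPM) and CDH1 (490.6 against 388 CPM) were also called higher in LPO against AFE, though CDH1 was highest in PSC. EPCAM fell in that step (285.2 against 499.9 CPM, log2 change -0.81, edgeR adjusted p = 0.000111). FOXP2 was not called there (23.5 against 18.7 CPM), and SFTPC averaged only 0.351 CPM in LPO. The 6 mesenchyme markers summed to 6367 to 6544 CPM in LPO against 373.3 to 378.1 CPM in AFE, 146.2 to 298.5 CPM in DE and 13.6 to 15.6 CPM in PSC. Of the 6, the collagens COL1A1, COL1A2 and COL3A1 and the receptors PDGFRA and PDGFRB rose in LPO against AFE, and ACTA2 fell, with 7.41 and 7.73 CPM in LPO against 41.1 and 42.0 CPM in AFE (log2 change -2.46, edgeR adjusted p = 7.9e-05). Their part in any LPO value given here was not tested, and in bulk libraries fewer cells of a type cannot be told apart from less RNA per cell.

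MYC, the founding member of the family, was highest in PSC. It had 29.1 FPKM in both PSC libraries, 6.93 and 5.07 FPKM in the DE libraries, 2.14 and 2.66 FPKM in the AFE libraries, and 8.35 and 7.95 FPKM in the LPO libraries. Both PSC libraries lay far above all others, both AFE libraries lay below all others, and the DE and LPO libraries did not overlap each other in FPKM, whereas in CPM both LPO libraries lay between the 2 DE libraries. The deposited counts behind these values were 4128 and 3536 in PSC, 1465 and 1061 in DE, 495 and 604 in AFE, and 1796 and 1702 in LPO. Across all genes MYC stood at percentiles 88.3 and 88.3 of the genes detected in the PSC libraries and at percentiles 52.6 and 55.6 in the AFE libraries.

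On the tested CPM scale, MYC fell 4.72-fold in DE against PSC (mean 22.0 ± 4.77 CPM in DE and 103.7 ± 1.88 CPM in PSC, SD, n = 2 each; log2 change -2.24, SE 0.17, adjusted p = 1.69e-05 by edgeR's quasi-likelihood test). Of all 19346 genes tested in that comparison, 53.8% were called at an adjusted p under 0.05. In AFE against DE it fell a further 2.42-fold, to 9.08 ± 1.41 CPM in AFE (log2 change -1.28, edgeR adjusted p = 0.000834; 35.3% of genes called). In LPO against AFE it rose 2.41-fold (log2 change 1.27, SE 0.17, edgeR adjusted p = 0.000277; 59.8% of genes called), with 21.9 ± 0.69 CPM in LPO. The net change, LPO against PSC, was a 4.73-fold fall (log2 change -2.24, edgeR adjusted p = 7.53e-06; 70.3% of genes called).

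MYC in LPO and in DE was not separated by edgeR's test, with a log2 change of 0.00 in LPO against DE, a 95% interval of -0.38 to 0.37 and an adjusted p of 0.993. This is the pair of neighbours in the order of MYC levels that the test left unresolved, and its sign depended on the scale: on log2(FPKM + 1) the change was 0.40 (limma adjusted p = 0.0365). The order was thus PSC above LPO and DE, with AFE lowest.

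MYCN, known for its role in embryonic progenitors and as the amplified gene of neuroblastoma, ran differently. The PSC libraries had 39.7 and 36.4 FPKM, the DE libraries 25.9 and 19.2 FPKM, the AFE libraries 45.9 and 46.0 FPKM, and the LPO libraries 4.65 and 4.21 FPKM. Both AFE libraries lay above all others and both LPO libraries below all others, with no overlap between any 2 stages. Over all genes tested, the CPM of the 2 stages did not overlap for 72.7% of genes in DE against PSC, 69.0% in AFE against DE, 84.4% in LPO against AFE, 86.2% in LPO against PSC, 76.4% in AFE against PSC and 84.7% in LPO against DE. The counts were 4524 and 3556 in PSC, 4390 and 3226 in DE, 8525 and 8406 in AFE, and 804 and 723 in LPO. In percentiles of detected genes, MYCN stood at 93.5 in each AFE library and at 57.8 and 56.4 in the LPO libraries.

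MYCN fell 1.65-fold in DE against PSC (66.2 ± 13.7 CPM in DE and 108.9 ± 4.64 CPM in PSC, SD, n = 2 each; log2 change -0.72, SE 0.13, edgeR adjusted p = 0.00255). It then rose 2.11-fold in AFE against DE, to 139.6 ± 0.72 CPM in AFE (log2 change 1.08, SE 0.14, edgeR adjusted p = 0.000669). In LPO against AFE it fell 14.6-fold (log2 change -3.87, SE 0.15, edgeR adjusted p = 5.6e-07), to 9.56 ± 0.65 CPM in LPO. Against PSC the LPO level was 11.4-fold lower (log2 change -3.51, edgeR adjusted p = 3.75e-07). Against DE it was 6.92-fold lower (log2 change -2.79, edgeR adjusted p = 1.81e-06; 62.7% of genes called).

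The highest pair of MYCN levels was not separated by the test. In AFE against PSC the log2 change was 0.36, with a 95% interval of 0.05 to 0.67, and an edgeR adjusted p of 0.0512 (56.8% of genes called). Leaving out DE library 1 or DE library 2, which serve only to estimate the spread in this comparison, gave adjusted p-values of 0.00796 and 0.0118. For MYC the same comparison was an 11.4-fold fall (log2 change -3.51, SE 0.18, edgeR adjusted p = 2.44e-06).

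MYCL, the least abundant of the 3 at every stage, was highest in DE. It had 1.11 and 0.98 FPKM in PSC, 4.24 and 3.95 FPKM in DE, 1.33 and 1.68 FPKM in AFE, and 1.52 and 1.28 FPKM in LPO. Both DE libraries lay above the other 6, among which the AFE and LPO libraries overlapped in FPKM. In CPM the overlap was between LPO (0.898 and 0.768 CPM) and PSC (0.868 and 0.802 CPM). Both AFE libraries (1.11 and 1.40 CPM) lay above these on that scale. These values rested on few reads: 35 and 27 counts in PSC, 196 and 181 in DE, 68 and 84 in AFE, and 72 and 61 in LPO, that is about 7 to 49 read pairs per library.

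MYCL rose 3.92-fold in DE against PSC (3.28 ± 0.15 CPM in DE and 0.835 ± 0.047 CPM in PSC, SD, n = 2 each; log2 change 1.97, SE 0.41, edgeR adjusted p = 0.00461). It fell 2.61-fold in AFE against DE (log2 change -1.38, SE 0.40, edgeR adjusted p = 0.0305), a call that was lost when any DE, AFE or LPO library was left out (log2 changes -1.56 to -1.23, adjusted p 0.058 to 0.132). In LPO against DE it was 3.93-fold lower (edgeR adjusted p = 0.00341). The PSC, AFE and LPO levels were not separated by edgeR's test. The log2 change was -0.59 in LPO against AFE (95% interval -1.52 to 0.34, adjusted p = 0.238), 0.59 in AFE against PSC (-0.36 to 1.54, adjusted p = 0.254) and 0.00 in LPO against PSC (-0.95 to 0.94). With so few read pairs these intervals are wide.

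Each paralog differed among the 4 stages by edgeR's F test (adjusted p = 1.88e-06 for MYC, 9.85e-07 for MYCN and 0.00438 for MYCL), beside 79.2% of all genes tested. The stage of highest level was a different one for each: PSC for MYC, AFE for MYCN and DE for MYCL, where AFE and PSC were not separated for MYCN.

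**Figure D1:**
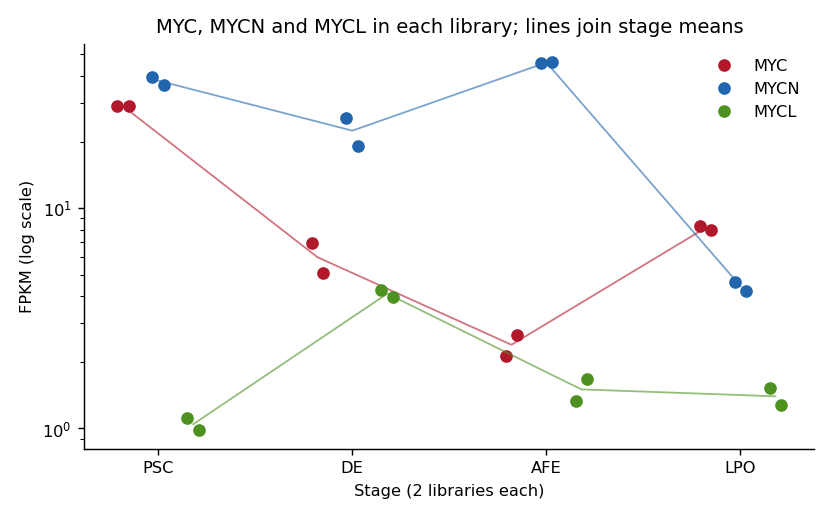
FPKM of MYC, MYCN and MYCL (y axis, log scale) in each library by stage (x axis); points are libraries, 2 per stage, and lines join stage means. MYCN lies above MYC in PSC, DE and AFE and below it in LPO, where MYCN averages 4.43 FPKM and MYC 8.15 FPKM, and MYCL peaks in DE at 4.095 FPKM.

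Set against each other per length, MYCN dominated in DE and AFE, MYC led in LPO, and PSC held both. As a share of the summed FPKM of the 3 paralogs, MYCN made up 55.8% ± 1.43 of the PSC sum, 68.9% ± 1.25 of the DE sum, 92.2% ± 1.12 of the AFE sum and 31.7% ± 0.50 of the LPO sum (SD, n = 2 each). The MYC share was 42.7% ± 1.51 in the PSC libraries, 18.3% ± 0.54 in the DE libraries, 4.81% ± 0.67 in the AFE libraries and 58.3% ± 1.16 in the LPO libraries. MYCL held 1.53% ± 0.081 at PSC, 12.7% ± 1.79 at DE, 3.02% ± 0.45 at AFE and 10.0% ± 0.67 at LPO. The order of the paralogs was the same in both libraries of every stage.

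The summed FPKM of the 3 was 69.8 and 66.4 in PSC, 37.0 and 28.2 in DE, 49.4 and 50.4 in AFE, and 14.5 and 13.4 in LPO. The total was therefore lowest in LPO, the stage in which MYC took the largest share, and the AFE total was made up almost wholly by MYCN. Between LPO and PSC, share and level of MYC ran in opposite order. LPO had 8.15 FPKM of MYC, against 29.1 FPKM in PSC, yet a share of 58.3% against 42.7%. For every other pair of stages, the stage with the larger MYC share also had more MYC in FPKM.

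The MYCN to MYC ratio in FPKM was 1.36 and 1.25 in the PSC libraries, 3.73 and 3.79 in DE, 21.4 and 17.3 in AFE, and 0.557 and 0.530 in LPO. MYC thus exceeded MYCN 1.80-fold and 1.89-fold in the LPO libraries, while MYCN exceeded MYC in all 6 others. The ratio differed among the stages more than within them by an exact permutation test over the 105 ways of sorting 8 libraries into pairs (p = 0.00952 for a spread between pairs at least as large, the smallest that this design allows; 0.0143 adjusted over 3 ratios). Between any 2 stages alone, 2 libraries against 2 cannot go below an exact permutation p of 0.33.

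The MYCL to MYC ratio was 0.0382 and 0.0337 in PSC, 0.612 and 0.779 in DE, 0.621 and 0.632 in AFE, and 0.182 and 0.161 in LPO. DE and AFE overlapped in it, and both lay above LPO and PSC (exact permutation p = 0.0286 among stages, also after adjustment). The MYCL to MYCN ratio was highest in LPO, with 0.327 and 0.304, against 0.164 and 0.206 in DE, 0.0290 and 0.0365 in AFE, and 0.0280 and 0.0269 in PSC (exact permutation p = 0.00952 among stages, 0.0143 adjusted).

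The lead of MYCN over MYC in PSC depended on the lengths. By counts, which are not corrected for length, MYC and MYCN held 48.6% and 51.0% of the 3 paralogs' counts in PSC, and MYC 67.8% in LPO. The lead of MYCN in DE and AFE and the lead of MYC in LPO were present on both scales. The implied MYC length is approximate and close to its whole span, so the length behind the MYC FPKM may be too long. If so, a shorter length would give MYC a higher FPKM at each stage in equal measure. That would leave the change of every ratio between stages as it is but could turn the order of MYC and MYCN in PSC.

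**Figure D2:**
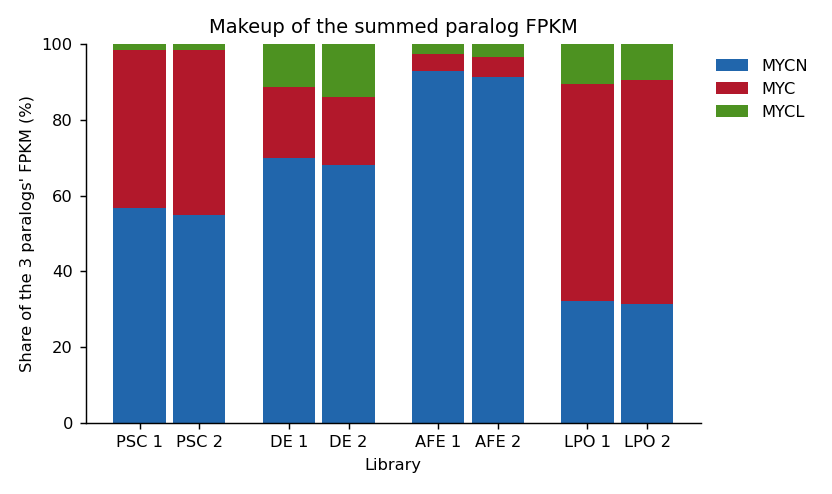
Share of each paralog (y axis, %) in the summed FPKM of MYC, MYCN and MYCL, stacked for each of the 8 libraries (x axis). MYCN fills 92.2% of the AFE columns on average, and the LPO columns are the ones in which MYC is the largest block, at 58.3%.

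MAX, the partner that all MYC proteins need, rose in the later steps. Its libraries had 24.9 and 23.0 CPM in PSC, 25.6 and 25.6 CPM in DE, 36.1 and 39.1 CPM in AFE, and 53.0 and 47.7 CPM in LPO. It rose in AFE against DE (log2 change 0.55, edgeR adjusted p = 0.00418) and in LPO against AFE (0.42, edgeR adjusted p = 0.00751), the second call being lost without AFE library 1 (adjusted p = 0.0664) or LPO library 1 (adjusted p = 0.093). In LPO, MAX averaged 22.8 FPKM, against 14.0 FPKM for the 3 paralogs together, while in PSC it averaged 8.19 FPKM, against 68.1 FPKM for the paralogs.

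Competitors of MYC for MAX and the related MLX branch made up the other 9 genes of the MAX network. Of all 10, 5 rose and 0 fell in DE against PSC, where 30.8% of all genes were called higher and 23.0% lower. In AFE against DE 2 rose and 1 fell (17.9% and 17.4% of all genes). In LPO against AFE 6 rose and 2 fell (30.2% and 29.6% of all genes). The medians of the list were log2 changes of 1.31, -0.26 and 0.82, against 0.08, 0.00 and 0.09 over all genes. In LPO against PSC 9 rose and 1 fell, with a median of 2.28 against 0.49 over all genes (41.5% of genes higher, 28.8% lower).

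MXD1, a repressor associated with differentiation, had 1.96 and 1.16 CPM in PSC, 12.5 and 7.71 CPM in DE, 6.35 and 6.59 CPM in AFE, and 65.2 and 63.4 CPM in LPO. Both LPO libraries stood well above all others. It rose in DE against PSC (log2 change 2.68, edgeR adjusted p = 0.000139) and in LPO against AFE (3.31, edgeR adjusted p = 1.8e-05). MXI1, also called MXD2 and a repressor of the same group, had 13.1 and 9.95 CPM in PSC, 49.1 and 35.7 CPM in DE, 25.4 and 23.1 CPM in AFE, and 136.9 and 131.8 CPM in LPO. It rose in DE against PSC (1.88, edgeR adjusted p = 6.87e-05), fell in AFE against DE (-0.81, edgeR adjusted p = 0.00884, lost without AFE library 2 at 0.0714) and rose in LPO against AFE (2.47, edgeR adjusted p = 9.93e-06). Its mean of 30.1 FPKM in LPO exceeded the summed 14.0 FPKM of the 3 MYC paralogs there, whereas in PSC MXI1 averaged 1.95 FPKM beside 68.1 FPKM of paralogs.

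MXD4, another repressor of the group, was lower in PSC (19.7 and 16.7 CPM) than in any other library, the other 6 lying between 52.5 and 71.2 CPM. It rose in DE against PSC (log2 change 1.83, edgeR adjusted p = 1.15e-05). MXD3, the member tied to dividing cells, rose in DE against PSC (2.38, edgeR adjusted p = 4.56e-06) and fell in LPO against AFE (-1.32, edgeR adjusted p = 4.67e-05). Its row is uncertain, since PRELID1 overlaps it on the opposite strand and holds 1922% of its count, and the strand setting of the counting is not stated.

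MNT and MGA, large repressors that pair with MAX, were near level in the first 3 stages and rose in LPO against AFE. MNT had 26.9 and 30.3 CPM in LPO against 12.8 and 11.9 CPM in AFE (log2 change 1.21, edgeR adjusted p = 0.00354). MGA had 27.2 and 32.1 CPM in LPO against 3.97 and 3.79 CPM in AFE (2.93, edgeR adjusted p = 3.03e-06). MLX, the MAX-like partner of the glucose-sensing factors, fell in LPO against AFE, with 34.3 and 33.5 CPM in LPO and 71.6 and 63.6 CPM in AFE (-1.0, edgeR adjusted p = 6.6e-05), and PSMC3IP on its other strand holds 45.0% of its count. MLXIP, a partner of MLX, rose in LPO against AFE (2.93, edgeR adjusted p = 6e-05). MLXIPL, the carbohydrate-response factor ChREBP, was at 0 in both PSC libraries and at 3.77 and 3.47 CPM in DE, at least 11.1-fold higher in DE against a floor of 12 counts per PSC library (edgeR adjusted p = 6.42e-05). It averaged 7.93 CPM in AFE and 4.68 CPM in LPO, and its change in AFE against DE (1.13, edgeR adjusted p = 0.0475) lost its call when either DE library, either AFE library or LPO library 1 was left out.

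**Figure D3:**
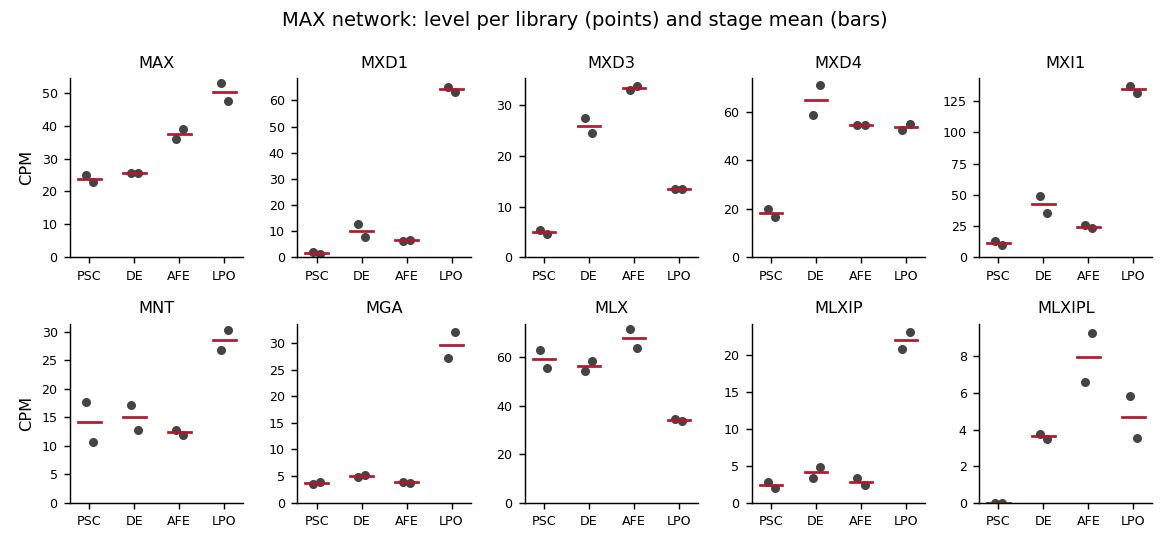
CPM (y axes, each starting at 0 with its own range) of the 10 genes of the MAX network by stage (x axes); points are libraries and bars are means of 2. MXD1, MXI1, MGA and MLXIP stand highest in both LPO libraries, and MXD3 and MLX fall there.

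Cofactors that MYC proteins recruit to chromatin moved in both directions. Of 17 tested, 7 rose and 6 fell in DE against PSC, 1 rose and 3 fell in AFE against DE, and 5 rose and 10 fell in LPO against AFE. Over all genes 30.8% rose and 23.0% fell in the first of these comparisons, 17.9% and 17.4% in the second, and 30.2% and 29.6% in the third. Over the alternatives the cofactors that fell in DE against PSC numbered 5 to 10, and those that rose in LPO against AFE 4 to 8. RUVBL1, a helicase of the TIP60 and INO80 complexes, averaged 675.6 CPM in PSC, 244.2 CPM in DE, 285.2 CPM in AFE and 38.5 CPM in LPO. It fell in DE against PSC (log2 change -1.47, edgeR adjusted p = 3.5e-06) and in LPO against AFE (-2.89, edgeR adjusted p = 2.34e-07). WDR5, a histone methyltransferase subunit that binds MYC directly, rose in DE against PSC (0.50, edgeR adjusted p = 0.00325). It then fell in AFE against DE (-0.68) and in LPO against AFE (-2.44). Its means were 162.3 CPM in PSC, 229.8 CPM in DE, 143.5 CPM in AFE and 26.4 CPM in LPO. KAT2A (GCN5), an acetyltransferase, fell in LPO against AFE (-2.09). EP300, another acetyltransferase, rose in that step (1.72), to 72.8 CPM in LPO against 22.1 CPM in AFE. ZBTB17, known as MIZ1 and the partner through which MYC represses genes, rose in DE against PSC (1.85), with 53.8 ± 1.23 CPM in DE and 14.9 ± 2.88 CPM in PSC. ACTL6A and PAF1 fell in DE against PSC (-1.13 and -0.74), but MRPL47 and SAMD4B, which overlap them on the other strand, have counts of 91.3% and 59.3% of theirs, so their values are uncertain. The AFE against DE calls of TRRAP (0.33) and EP300 (-0.36) were small, and both were lost when AFE library 1 was left out (edgeR adjusted p = 0.158 and 0.178).

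Genes that set the stability of MYC proteins were called in both directions. Of 15 tested, 5 rose and 5 fell in DE against PSC, 4 rose and 6 fell in AFE against DE, and 4 rose and 6 fell in LPO against AFE. All genes were called higher at 30.8%, 17.9% and 30.2% in these steps and lower at 23.0%, 17.4% and 29.6%, so the rises in the first and last step were near the share of all genes. AXIN1, a scaffold on which MYC is phosphorylated for decay, rose in DE against PSC (log2 change 1.93) and fell in LPO against AFE (-1.33). PLK1, a mitotic kinase known to stabilise MYCN protein, rose in DE against PSC (1.06) and fell in LPO against AFE (-2.70), with 23.3 CPM in LPO against 151.5 CPM in AFE. STUB1, a ubiquitin ligase, fell in both of those steps (-0.67 and -2.66). PPP2R5A, a phosphatase subunit that promotes MYC decay, rose in each of the 3 steps, with means of 10.0 CPM in PSC, 31.3 CPM in DE, 50.6 CPM in AFE and 80.4 CPM in LPO. USP37, a deubiquitinase of MYC, rose in LPO against AFE (3.37), with 30.4 CPM in LPO against 2.94 CPM in AFE. In AFE against DE, TRIM32, a ligase that targets MYC in neural progenitors, rose (1.37), while USP28 (-0.82), GSK3B (-0.66) and CIP2A (-0.99) fell. USP28 and CIP2A are known to protect MYC, and GSK3B marks it for decay.

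Signals known to act on MYC genes or on their RNA were likewise mixed, with 9 rising and 6 falling of 17 in DE against PSC, 4 and 7 in AFE against DE, and 10 and 5 in LPO against AFE. Against these counts stand 30.8% of all genes higher and 23.0% lower, 17.9% and 17.4%, and 30.2% and 29.6%. Under the alternatives 6 to 8 of the 17 rose in DE against PSC, below the 9 reported. LIN28A, an RNA-binding protein that blocks let-7, averaged 4.60 CPM in PSC, 35.4 CPM in DE, 9.98 CPM in AFE and 0.094 CPM in LPO. It rose in DE against PSC (log2 change 2.95), fell in AFE against DE (-1.83) and fell in LPO against AFE (-6.70). IGF2BP1, which binds and stabilises MYC RNA, fell in DE against PSC (-1.67) and rose in LPO against AFE (0.98), passing the test in the same direction as MYC in all 3 steps. How many of all genes did so was not counted. STAT3, an activator of MYC in mouse embryonic stem cells, and CTNNB1 (beta-catenin) both rose in DE against PSC, where MYC fell. Their log2 changes there were 0.65 and 0.19 (edgeR adjusted p = 0.000135 and 0.0493). Both fell in AFE against DE (-0.75 and -0.71) and rose in LPO against AFE (2.80 and 1.94). HNRNPK fell in AFE against DE (-0.66), ELAVL1 fell in LPO against AFE (-1.08), and IGF2BP2 rose in LPO against PSC (1.86). GLI2, a Hedgehog effector, fell in DE against PSC (-4.67), with 0.695 CPM in DE against 17.8 CPM in PSC. LEF1, a Wnt effector, rose in DE against PSC by 4.69, which became 3.99 without PSC library 1 and 5.82 without PSC library 2, because it averaged only 0.456 CPM in PSC. Its rise in LPO against PSC was 7.32, and 6.62 or 8.45 without either PSC library.

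Genes that MYC proteins are known to activate fell as a majority in 2 of the 3 steps. Like the other lists, this one was chosen with earlier results of these data known, so its counts are not independent of them. Of 46 tested, 31 fell and 7 rose in DE against PSC, with a median log2 change of -0.95. In AFE against DE 13 rose and 9 fell, with a median of 0.10. In LPO against AFE 41 fell and 2 rose, with a median of -1.73. In LPO against PSC 44 fell and 2 rose, with a median of -2.47. Over all genes 23.0%, 17.4%, 29.6% and 28.8% were called lower in these 4 comparisons, and their medians were 0.08, 0.00, 0.09 and 0.49. The AFE against DE counts moved with single libraries, between 6 and 15 higher and between 3 and 10 lower over the alternatives. AIMP2, UTP20 and BYSL are among the genes counted and are uncertain. The genes overlapping them on the opposite strand hold 644.5%, 400.5% and 82.4% of their counts.

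Named by the smallest adjusted p, NPM1, a nucleolar chaperone of ribosome assembly, averaged 2581 CPM in PSC, 1218 CPM in DE, 1648 CPM in AFE and 909.1 CPM in LPO. NPM1 fell in DE against PSC (log2 change -1.08), rose in AFE against DE (0.44) and fell in LPO against AFE (-0.86), the order of signs that MYCN showed. UNG, a uracil glycosylase (-1.74, 0.74 and -1.78), and MRTO4, a ribosome assembly factor (-1.52, 0.49 and -2.84), passed the test with the same signs in the 3 steps. The share of all genes with these signs was not counted. EIF4A1, the helicase of translation initiation, averaged 4106 CPM in PSC, 1570 CPM in DE, 1192 CPM in AFE and 318.9 CPM in LPO and fell in every step (-1.39, -0.40 and -1.90). ODC1, the rate-limiting enzyme of polyamine synthesis, also fell in every step, to 42.4 CPM in LPO against 330.6 CPM in AFE (-2.96). FBL, the methyltransferase of ribosomal RNA, fell in LPO against AFE (-3.63), with 36.3 ± 3.46 CPM in LPO and 450.3 ± 19.8 CPM in AFE. HSPD1, a mitochondrial chaperone, fell in DE against PSC (-1.54), and IMP4, another ribosome assembly factor, rose in AFE against DE (0.64). MRTO4 overlaps AKR7A2 on the opposite strand, which holds 134.9% of its count, so its values are uncertain.

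Some members ran against the list, and they are named here after their values were seen. In DE against PSC the 7 that rose were CCND2 (cyclin D2), LDHA (lactate dehydrogenase), TERT (telomerase), CAD (pyrimidine synthesis), BOP1, IPO4 and TCOF1. BOP1 and IPO4 are uncertain, since HSF1 overlaps BOP1 on the opposite strand and has 141.9% of its count, and TM9SF1 overlaps IPO4 and has 104.4% of its count. CCND2 averaged 58.2 ± 10.4 CPM in DE and 3.87 ± 0.35 CPM in PSC (log2 change 3.91, edgeR adjusted p = 1.15e-06). LDHA averaged 2492 ± 622.4 CPM in DE and 270.9 ± 5.39 CPM in PSC (3.20, edgeR adjusted p = 1.96e-06). LDHA and WDR43, a ribosome assembly factor, were the 2 that rose in LPO against AFE (0.57 and 0.23).

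Genes that MYC proteins are known to repress were higher in the later stages. This list too was chosen with earlier results of these data known. Of 13 tested, 12 rose and 0 fell in DE against PSC (median log2 change 2.14, or 2.11 with the gene at 0 in PSC placed at its bound), 6 rose and 3 fell in AFE against DE (0.53), and 11 rose and 2 fell in LPO against AFE (1.96). The shares of all genes called higher were 30.8%, 17.9% and 30.2%, those called lower 23.0%, 17.4% and 29.6%, and the medians of all genes 0.08, 0.00 and 0.09. All 13 rose in LPO against PSC, with a median of 4.11, where 41.5% of all genes were called higher. CDKN1A, the cell cycle inhibitor p21, averaged 12.2 CPM in PSC, 43.0 CPM in DE, 119.8 CPM in AFE and 192.4 CPM in LPO and rose in every step (1.82, 1.48 and 0.68). CDKN2B, the inhibitor p15, was at 0 in both PSC libraries and averaged 0.444 CPM in DE, 8.87 CPM in AFE and 34.5 CPM in LPO, at least 105.4-fold higher in LPO than the PSC floor. TXNIP, an inhibitor of glucose uptake, averaged 6.86 CPM in PSC, 46.4 CPM in DE, 77.7 CPM in AFE and 1029 CPM in LPO, and rose in every step (2.76, 0.74 and 3.73).

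GADD45A, a growth arrest gene, and THBS1, an anti-angiogenic matrix protein, had their peak in DE. GADD45A averaged 2.46 CPM in PSC, 221.4 CPM in DE, 43.0 CPM in AFE and 73.7 CPM in LPO (log2 changes 6.49, -2.37 and 0.78, all called). THBS1 averaged 9.17 CPM in PSC, 135.3 CPM in DE, 22.0 CPM in AFE and 87.7 CPM in LPO (3.89, -2.62 and 1.99, all called). TGFBI, a matrix protein, averaged 717 CPM in LPO against 40.8 CPM in AFE (4.13), and KLF6 216.5 CPM in LPO against 14.7 CPM in AFE (3.88). THBS1 and TGFBI are also made by mesenchyme, of whose 6 markers 5 rose and ACTA2 fell in the same step, and the part of those cells in the values was not tested. CEBPA, a liver and lung differentiation factor, and ITGA6, an integrin of epithelia, were the 2 that fell in LPO against AFE (-2.04 and -0.74), and were named after their values were seen.

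**Figure D4:**
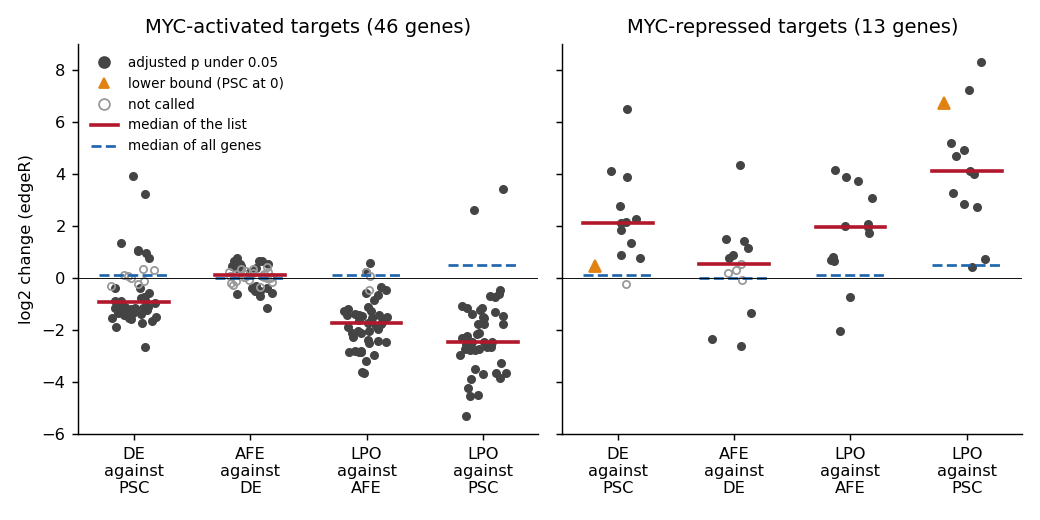
Log2 change (y axis) of each tested MYC-activated target (left, 46 genes) and MYC-repressed target (right, 13 genes) in the 4 comparisons on the x axis. Both lists were chosen with earlier results of these data known. Filled points passed an adjusted p of 0.05, open points did not, triangles are lower bounds for a gene at 0 in PSC, red bars are list medians and dashed lines the median of all genes; the activated medians are -0.95, 0.10, -1.73 and -2.47.

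Proliferation genes moved with the activated targets in the last step. Of 10 tested, 4 rose and 5 fell in DE against PSC, 3 rose and 5 fell in AFE against DE, and all 10 fell in LPO against AFE, with a median log2 change of -2.19 against 0.09 over all genes. Called lower were 23.0%, 17.4% and 29.6% of all genes in these steps, and called higher 30.8%, 17.9% and 30.2%. MCM2, a replication helicase subunit, averaged 520.8 CPM in PSC, 210 CPM in DE, 308.2 CPM in AFE and 36.9 CPM in LPO (log2 changes -1.31, 0.55 and -3.06, all called), the same signs as MYCN. PCNA, the replication clamp (-2.15, 0.58 and -2.61), and TYMS, an enzyme of thymidine synthesis (-0.45, 1.06 and -2.95), showed those signs too, with all calls past the threshold. The share of all genes with these signs was not counted. BIRC5 (survivin) rose in DE against PSC (0.55) and fell in LPO against AFE (-3.50). CCNB1 (cyclin B1) fell in every step (-0.55, -0.91 and -2.01). CDK1, its kinase, rose in DE against PSC (0.50) and fell in AFE against DE (-0.98), opposite to MYCN in both steps. TOP2A (0.37 and -0.54) and BUB1 (0.62 and -0.70), named after their values were seen, did the same. MCM2 and CDK1 overlap genes on the opposite strand that hold 22.3% and 21.0% of their counts. CCNA2 (cyclin A2), counted among the 10, overlaps EXOSC9 on the opposite strand, which holds 379.5% of its count, so its values are uncertain. The proliferation genes, MYCN and most activated targets fell in LPO against AFE, while MYC rose there. The part of cell division in the fall of the targets was not tested.

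The genes whose levels over the 8 libraries were most like each paralog were ranked by Pearson's r of log2 CPM among 8934 genes with a symbol and at least 5 FPKM in their highest stage. With 4 stages of 2 libraries each, such values describe mainly the order and spacing of the stage levels. Closest to MYC were PCDH8 (r = 0.995), BRINP1 (0.990), BCL9 (0.989), NCAN (0.989) and FOSB (0.989). FOSB, an AP-1 factor, averaged 54.2 CPM in PSC, 1.69 CPM in DE, 0.562 CPM in AFE and 2.64 CPM in LPO. BCL9, a Wnt coactivator, was also highest in PSC and lowest in AFE, over a narrower range. It averaged 97.9 CPM in PSC, 67.4 CPM in DE, 51.2 CPM in AFE and 64.5 CPM in LPO.

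Closest to MYCN were XKR5 (r = 0.999), PABPC4 (0.997), ARL6IP4 (0.995), POLR2I (0.995) and TSTD1 (0.995). PABPC4, a poly(A)-binding protein, averaged 359.6 CPM in PSC, 273.6 CPM in DE, 419.8 CPM in AFE and 100.8 CPM in LPO. Closest to MYCL were BCAR3 (r = 0.994), BEST2 (0.992), EZR (0.989), CALM3 (0.987) and ANLN (0.985). EZR, which links actin to the membrane, averaged 262 CPM in PSC, 814.8 CPM in DE, 360.6 CPM in AFE and 260.6 CPM in LPO. At r above 0.95 there were 73 genes for MYC, 441 for MYCN and 59 for MYCL.

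The nearest neighbours did not in general share the course of the paralogs. Next to MYC, 46086 bases away on the same strand, lies a long non-coding RNA gene without a symbol (ENSSSCG00000046151, chromosome 4, 12184935 to 12409035). It had 27.5 and 33.3 CPM in PSC, 8.01 and 6.73 CPM in DE, 36.8 and 38.7 CPM in AFE, and 9.54 and 9.79 CPM in LPO. It fell with MYC in DE against PSC (log2 change -2.04, edgeR adjusted p = 1.36e-05), then rose where MYC fell in AFE against DE (2.36, edgeR adjusted p = 2.12e-05) and fell where MYC rose in LPO against AFE (-1.97, edgeR adjusted p = 9.96e-06). The next tested protein-coding gene on the other side, LRATD2, is 986837 bases away and rose in DE against PSC (2.15, edgeR adjusted p = 9.9e-06).

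**Figure D5:**
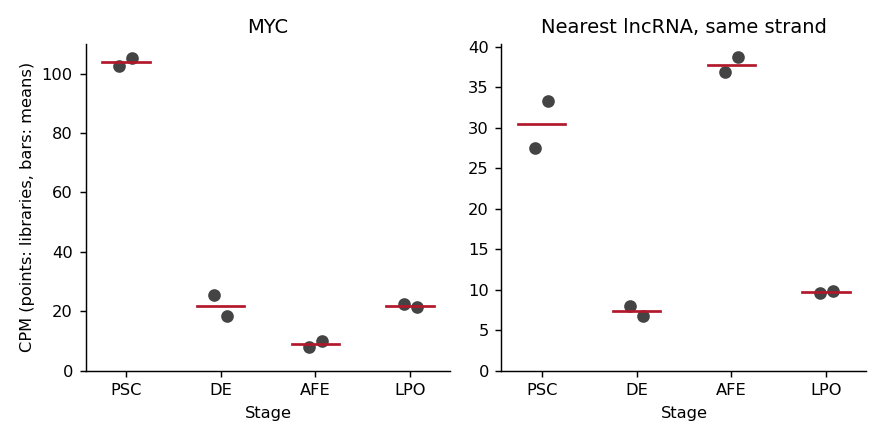
CPM (y axes, starting at 0) of MYC (left) and of the nearest long non-coding RNA gene on the same strand (right) by stage; points are libraries and bars means of 2. Both are lower in DE than in PSC, and in AFE, where MYC is lowest at 9.08 CPM, the neighbour is highest at 37.8 CPM.

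MYCN lies between CYRIA and DDX1, the helicase gene often amplified with MYCN in human neuroblastoma. DDX1, 269359 bases away on the same strand, averaged 220 CPM in PSC, 132.3 CPM in DE, 125.3 CPM in AFE and 98.9 CPM in LPO. It fell with MYCN in DE against PSC (log2 change -0.73, edgeR adjusted p = 6.1e-05), was not called in AFE against DE (-0.08, adjusted p = 0.426), where MYCN rose, and fell by 0.34 in LPO against AFE (edgeR adjusted p = 0.00334), where the MYCN change was -3.87. CYRIA, 473868 bases away, rose in LPO against AFE (1.06, edgeR adjusted p = 0.000252). MYCL lies 17654 bases from TRIT1, a transfer RNA modifying enzyme, and 36438 bases from MFSD2A, a lipid transporter. Both fell in DE against PSC (-0.91 and -1.42, edgeR adjusted p = 0.00014 and 0.00376), the step in which MYCL rose.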

How the data were processed

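The authors deposited a single table of 25578 genes of expected counts, that is estimated read numbers, and of FPKM for 8 libraries, 2 per stage. Tools listed in the submitters' processing notes are StringTie 2.1.6, HISAT2 2.2.1, cutadapt 1.9, edgeR and DESeq2, with no role stated. The build was not given in the sources used here. Rounding left the deposited expected counts as they were, whole numbers. Columns were matched to samples through the labels, and MYCL to its row through the description. The strand setting of the counting is not stated, so genes overlapping another on the opposite strand are uncertain. This also holds for list members that are counted but not named.

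The 19346 genes kept by filterByExpr were normalised by TMM and fitted with the 4 stages as groups (edgeR 4.0.16, glmQLFit and glmQLFTest, 4 residual degrees of freedom, R 4.3.3), with Benjamini-Hochberg adjustment over all of them and calls at an adjusted p under 0.05. Steps were checked on simulated data. Levels of different genes were compared in the authors' FPKM. Lists were described by counts and medians beside those of all genes, without a set test. Members and lists were chosen with earlier results of these data known, and the among-stage permutation test of the paralog ratios was added after the files were seen. Named are the 3 paralogs, the MAX network, per list and comparison up to 4 called members with the smallest adjusted p, the 5 genes most like each paralog, and the nearest neighbours. A gene that this rule names is not reported here. Of the pathway lists, 10 of 10 MAX network genes, 17 of 17 cofactors, 15 of 18 turnover genes, 46 of 50 activated and 13 of 13 repressed targets, 17 of 18 upstream signals and 10 of 12 proliferation genes were tested. Within-stage Pearson correlations of libraries were 0.962 to 0.982, and no 2 libraries were duplicates.

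Alternatives were DESeq2 size factors, no filter, a filter of 5 FPKM in 2 libraries, the DESeq2 1.42.0 Wald test, limma 3.58.1 on log2 FPKM with pseudocounts of 1 and 0.1, counts divided by 4, only the libraries compared, a replicate block, and each library left out. Figures were drawn with Python 3.11.15 and matplotlib 3.10.9. Counting error and the spread between 2 libraries are the only errors measured.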

Additional observations from a re-analysis of the deposited data

How the results depend on the processing

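Of the values of the 3 paralogs under all alternatives, 319 kept direction and side of the threshold, 15 changed sign, 6 passed the threshold where the reported value did not and 7 lost it. The sign changes belong to 2 changes near 0 that were not called. For MYC in LPO against DE the log2 change was 0.0457 with DESeq2 size factors, 0.0458 by the DESeq2 Wald test, 7e-04 without a filter, 0.29 with the 5 FPKM filter, 0.40 and 0.45 by limma on log2(FPKM + 1) and log2(FPKM + 0.1) (adjusted p = 0.0365 and 0.0444), 0.0061 on counts divided by 4, and -0.19 to 0.24 with a library left out. For MYCL in LPO against PSC it was 0.0056 without a filter, 0.23 and 0.39 by limma with pseudocounts of 1 and 0.1, and -0.17 to 0.0591 with a library left out. MYCN in AFE against PSC passed the threshold without a filter (0.36, adjusted p = 0.0476), on counts divided by 4 (0.34, adjusted p = 0.0334), with only the 4 libraries compared (0.32, adjusted p = 0.0149) and with the replicate block (0.36, adjusted p = 0.0338), and ranged from 0.32 to 0.41 with a library left out. MYCL in AFE against DE lost its call with the replicate block (-1.38, adjusted p = 0.0641) and ranged from -1.56 to -1.23 with a library left out. MYCL has no value under the 5 FPKM filter, which it does not pass. The replicate number did not pair libraries (correlations of same-numbered deviations -0.0136 to 0.00782), and among the other named genes the block ended only the AFE against DE calls of MLXIPL, TRRAP and EP300 (adjusted p = 0.0714, 0.0618 and 0.0558).

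The count of all genes called higher with the 5 FPKM filter, which tests fewer genes, was 3971 in DE against PSC, 4830 in LPO against PSC, 4058 in AFE against PSC and 3997 in LPO against DE, against 5962, 8031, 6354 and 6114 as reported. In LPO against AFE limma on log2 FPKM called 8969 and 8801 genes higher (pseudocounts 1 and 0.1), against 5842, and the share of higher among called genes was 66.9% and 66.6%, against 50.5%; in LPO against DE it was 65.2% and 64.9%, against 50.4%. In AFE against DE 2248 to 4030 genes were called higher with a library left out, against 3467, the lowest counts being 2292 without AFE library 1 and 2248 without AFE library 2. The median of all genes in LPO against AFE was 0.16 and 0.43 on log2 FPKM with pseudocounts of 1 and 0.1, against 0.09. Shares by counts in place of FPKM, in the order PSC, DE, AFE and LPO, were 48.6%, 24.0%, 6.04% and 67.8% for MYC and 0.391%, 3.65%, 0.836% and 2.57% for MYCL, and 51.0%, 72.4% and 29.6% for MYCN in PSC, DE and LPO, since counts favour long transcripts. Of the other named genes, 2040 values kept call and direction and 28 lost the call, none reversed. With about 7 to 49 read pairs per library, depth limits MYCL most.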
